A study of Mus musculus with 12 samples.

Results

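The 10 genes described here encode CC chemokines, small secreted proteins that attract leukocytes, and were measured in macrophages sorted from mouse tumours. Ccl2, Ccl3, Ccl4, Ccl5, Ccl6, Ccl7, Ccl8, Ccl9, Ccl12 and Ccl24 were chosen by name from a table of 24781 gene rows, and every one of the 10 had molecules in it. The study asked what blockade of the GABA type A receptor does to the transcriptome of tumour-associated macrophages (TAMs). Wild-type mice carried MC38, a mouse colon carcinoma line, in the skin of the flank and received intraperitoneal picrotoxin, an antagonist of that receptor, or its solvent DMSO, starting before the tumour cells were given. On day 7 after inoculation, 100 cells that were positive for CD45 and CD11b and high for F4/80 were sorted for each library, and the labels number 6 DMSO and 6 picrotoxin libraries. Both groups had the same tumour, and no untreated or tumour-free mice are among these libraries. All mice were adults on a C57BL/6 background per the methods, which state a common age range of some months for all experiments, and the labels give no age per library. The labels call the libraries independent preparations, the methods of the study assign a mouse to each, and a legend of the study lists fewer animals. If libraries shared a mouse, the p-values below are too small.

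CC chemokines bind G protein-coupled receptors on the target cell, and the gradient they form directs its migration. Tumours use them to draw monocytes from the blood, chiefly through the receptor Ccr2, and macrophages that have arrived secrete more of them. The genes fall into groups by ligand: the monocyte chemoattractant proteins Ccl2, Ccl7, Ccl8 and Ccl12, the inflammatory proteins that attract T cells, NK cells and monocytes (Ccl3, Ccl4 and Ccl5), the myeloid Ccr1 ligands Ccl6 and Ccl9, and Ccl24, an eotaxin that acts on the eosinophil receptor Ccr3.

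Libraries held between 201697 and 309617 molecules, so a count of 0 in the smallest library allowed a share of up to 0.00149% (3 molecules, counting error only). The sort markers Itgam (CD11b), Adgre1 (F4/80) and Ptprc (CD45) were detected in every library, and the 11 macrophage markers summed to 1.28% ± 0.172 of the DMSO molecules and 1.36% ± 0.0505 of the picrotoxin molecules (SD, n = 6). The T and NK cell markers Cd3e, Cd3g, Cd8a and Gzma were at 0 throughout, and the summed markers of these cells gave 0 to 1 molecule in DMSO and 0 to 23 in picrotoxin. Transcripts of the 12 fibroblast and matrix markers ranged from 18 to 825 molecules in DMSO and from 9 to 62 in picrotoxin, and were most abundant in DMSO replicates 5 (825) and 3 (224). Libraries numbered 1 and 2 stood apart from those numbered 3 to 6 in both groups in earlier results of these data, although the labels name no batch. Values without DMSO replicates 3 and 5, and within replicates 3 to 6, are therefore given where they change a result. These subsets were chosen with earlier results of these data known, so p-values within them are descriptive. The RNA of 100 pooled cells does not separate fewer expressing cells from less RNA per cell.

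Of the 10 genes, 9 lie in clusters on chromosome 11 and Ccl24 lies on chromosome 5 (GRCm38, GENCODE release M21). The monocyte chemoattractant genes occupy the plus strand, with Ccl2 at chr11:82035571-82037453, Ccl7 at chr11:82045712-82047525, Ccl12 at chr11:82101845-82103400 and Ccl8 at chr11:82115185-82116799. The other cluster holds Ccl5 (chr11:83525778-83530518), Ccl9 (chr11:83572919-83578636), Ccl6 (chr11:83587882-83593087) and Ccl3 (chr11:83647844-83649355) on the minus strand and Ccl4 (chr11:83662584-83664683) on the plus strand. Ccl24 is at chr5:135569937-135573049 on the minus strand. The closest pairs of coding sequences were Ccl2 and Ccl7 at 72.1% identity, Ccl3 and Ccl4 at 71.1%, Ccl6 and Ccl9 at 70.7% and Ccl8 and Ccl12 at 70.5%. Transcripts of 9 genes shared no segment of at least 90% identity with a transcript of another gene. The long transcript of Ccl9 (3006 bases) shared such segments with 1663 other genes, the longest of 195 bases, so the count of Ccl9 is uncertain. Ccl2 and Ccl6 are overlapped on the opposite strand by Gm17268 and E230016K23Rik, and whether the counting used strand was not stated.

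RefSeq promoter sequences (GRCm38.p6) matched 5 of the 10 genes, namely Ccl3, Ccl6, Ccl8, Ccl9 and Ccl12. The 250 bases before the start of Ccl12 and Ccl8 are shown because Ccl8 had the smallest p of the 10 genes between the groups and Ccl12 is the gene beside it. They read on the plus strand, chr11:82101595-82101844 for Ccl12 and chr11:82114935-82115184 for Ccl8, with the TATA box TATAAA in capitals.
Ccl12: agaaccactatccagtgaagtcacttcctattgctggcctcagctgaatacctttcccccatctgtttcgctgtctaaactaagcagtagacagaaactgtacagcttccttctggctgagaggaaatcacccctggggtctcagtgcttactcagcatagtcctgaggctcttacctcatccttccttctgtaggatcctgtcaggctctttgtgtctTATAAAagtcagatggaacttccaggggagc
Ccl8: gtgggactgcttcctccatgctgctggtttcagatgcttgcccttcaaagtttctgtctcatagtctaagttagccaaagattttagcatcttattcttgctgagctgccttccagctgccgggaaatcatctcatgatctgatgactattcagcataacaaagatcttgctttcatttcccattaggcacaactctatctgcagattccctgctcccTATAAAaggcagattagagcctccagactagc
The letters TATAAA stood 31 bases before the start of Ccl12 and 32 before that of Ccl8, and 92 before that of Ccl9. On the given strand, 8.12% of all 27025 promoters held them within the same length. The letters GAGGAA, the core bound by the macrophage factor PU.1, were found on either strand before Ccl12, Ccl8 and Ccl3, against 23.1% of all promoters. An NF-κB motif (GGG and TTTCC with any 2 bases between them, either strand, 1.4% of all promoters) and an AP-1 motif (TGANTCA, either strand, 6.87%) were found before Ccl9 and before none of the other 4 matched genes. A match of letters does not show that a factor binds there.

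The 10 genes took 0.250% ± 0.0496 of all molecules in DMSO libraries (lowest 0.173%, median 0.250%, highest 0.312%) and 0.215% ± 0.0267 in picrotoxin libraries (lowest 0.178%, median 0.220%, highest 0.247%; SD, n = 6), or 6738 molecules in all. The ranges overlapped, and the highest shares belonged to DMSO replicates 1 and 2. Within replicates 3 to 6 the means were 0.225% in DMSO and 0.202% in picrotoxin. The row of the ribosomal RNA precursor Rn45s also differed between the groups, at 10.1% ± 2.42 of molecules in DMSO against 12.95% ± 1.32 with picrotoxin (exact permutation p = 0.0368), as did the number of detected genes (10400 ± 409 against 9999 ± 139, SD, n = 6, exact permutation p = 0.0455). Without the Rn45s row in the total, the difference in the chemokine share was -0.03035 percentage points, against -0.03491 with it. Ccl2 alone made up 31.2% ± 3.56 of CC chemokine molecules in DMSO and 28.2% ± 2.62 in picrotoxin, followed by Ccl12 (16.0% ± 2.19 and 15.5% ± 3.70) and Ccl7 (15.2% ± 2.15 and 13.6% ± 0.889). Ccl24 was the rarest, at 0.95% ± 0.691 and 1.59% ± 0.662. The plot of shares by library shows this make-up in each of the 12 libraries.

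**Figure D1:**
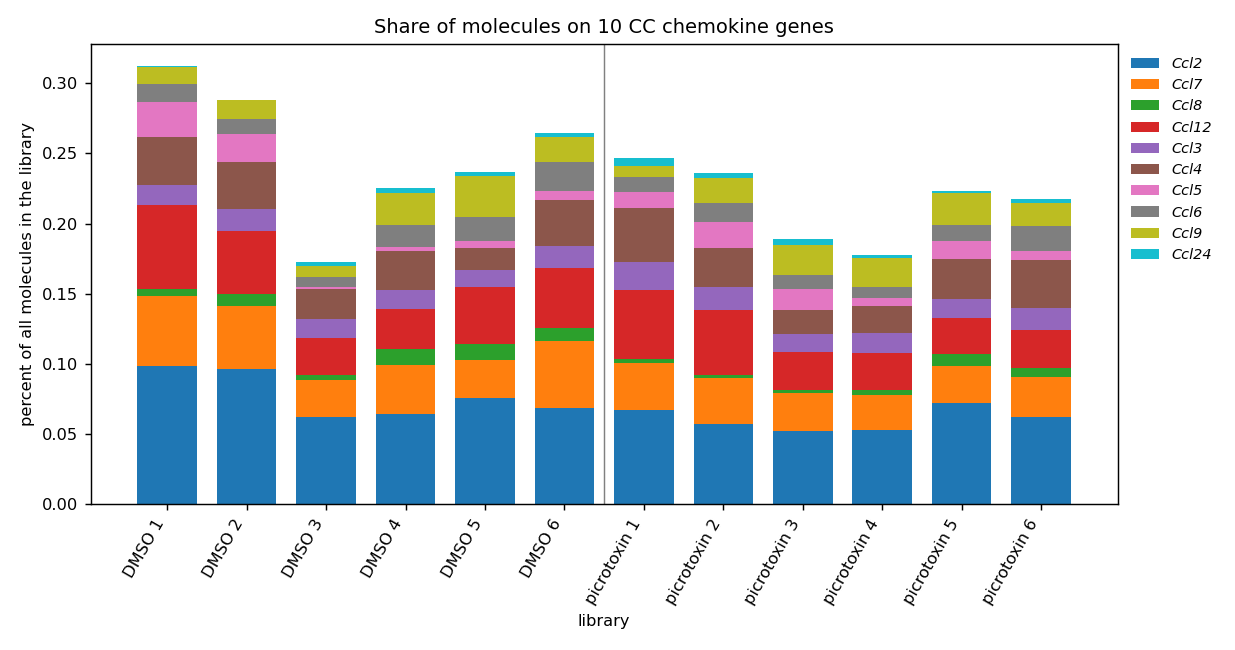
Each bar is 1 library of 100 sorted macrophages, and the coloured segments are the percent of its molecules on each of the 10 CC chemokine genes. Bar heights run from 0.173% to 0.312% in DMSO and from 0.178% to 0.247% in picrotoxin, and the Ccl2 segment is the largest in every bar.

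On the scale of normalised molecules per kilobase of transcript, the order of levels in DMSO was Ccl2 (219.5 ± 44.8), Ccl12 (173 ± 51.1), Ccl7 (109.9 ± 29.7), Ccl4 (96.5 ± 26.1), Ccl5 (43.7 ± 42.5), Ccl3 (41.9 ± 4.30), Ccl8 (37.7 ± 15.7), Ccl6 (22.1 ± 7.32), Ccl9 (13.2 ± 5.81) and Ccl24 (3.75 ± 2.41; SD, n = 6). Ccl2 was above Ccl12 in 6 of 6 DMSO libraries and in 4 of 6 picrotoxin libraries, and Ccl12 was above Ccl7 in 6 of 6 of each. Ccl7 and Ccl4 lay within their spread of each other and changed places with picrotoxin, where Ccl7 was the higher in 2 of 6 libraries against 5 of 6 in DMSO. Ccl5 exceeded Ccl3 in 2 of 6 DMSO and 3 of 6 picrotoxin libraries, so that these neighbours could not be ordered. In molecules not divided by length, 4 of the 10 genes had another rank, with Ccl9 moving up from 9 to 5. Because the copying started at the poly(A) tail of fragmented RNA, a long transcript need not give more molecules, and the division by length may understate long ones.

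Picrotoxin was then compared with DMSO, each gene as normalised molecules per library. The monocyte chemoattractants Ccl2, Ccl7 and Ccl8 had lower means with picrotoxin, Ccl2 by the most molecules and Ccl8 by the largest fold, but no CC chemokine passed the threshold after adjustment over all 9580 tested genes. In edgeR, 0 of the 10 had an adjusted p under 0.05, beside 5 of 9580 genes in all (0.0522%). At an unadjusted p under 0.05 there were 3 of 10, beside 7.77% of all genes. These 3 were all lower with picrotoxin, where the background in that direction was 4.11%, and 0 of 10 were higher at that threshold, beside 3.65%. DESeq2 also gave 0 after adjustment and 3 before it, beside 4.04% of all genes before it. Its filter on low counts left Ccl3, Ccl5, Ccl6, Ccl8, Ccl9 and Ccl24 without an adjusted p, so that 0 covers only the other genes. With limma-voom the numbers after and before adjustment were 0 and 4, beside 7.75% before it. Of these 4, 2 were higher with picrotoxin (Ccl5 and Ccl24) and 2 lower (Ccl2 and Ccl8). The median log2 fold change in edgeR was -0.08 over the 10 genes and -0.01 over all tested genes, and 5 of the 10 were negative. In 0 of the 10 genes did the groups fail to overlap, which occurred for 0.386% of all genes.

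Ccl2, the main ligand of Ccr2, ranged from 146 to 225 normalised molecules in DMSO (median 164) and from 124 to 167 in picrotoxin (median 141). All 6 picrotoxin libraries were below the DMSO mean of 178 ± 36.4, at 143 ± 17.2 (SD, n = 6), while DMSO replicates 1 and 2 (225 and 223) stood above all other libraries. The log2 fold change was -0.31 ± 0.12 (SE, unadjusted p = 0.0152, adjusted p = 0.495, edgeR). In replicates 3 to 6 alone it was -0.13 ± 0.12 (edgeR, unadjusted p = 0.286). Without DMSO replicate 1 or 2 it was -0.23 in each case (edgeR, unadjusted p = 0.0556 and 0.0633).

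Ccl7, which shares that receptor, ranged from 60.5 to 114 in DMSO (median 92.5) and from 61.2 to 80.2 in picrotoxin (median 66.3). The means were 88.1 ± 23.8 and 68.9 ± 8.03 (SD, n = 6), again with 6 of 6 picrotoxin libraries below the DMSO mean, and the lowest DMSO values were those of replicates 5 and 3. In edgeR the log2 fold change was -0.34 ± 0.15 (SE, unadjusted p = 0.0280, adjusted p = 0.574). Without DMSO replicates 3 and 5, the libraries richest in matrix transcripts, it was -0.55 ± 0.13 (edgeR, unadjusted p = 0.000146, adjusted p = 0.331). In replicates 3 to 6 alone it was -0.27 ± 0.16 (edgeR, unadjusted p = 0.107). Leaving out any of DMSO replicates 1, 2 and 6 or picrotoxin replicates 3, 4 and 5 also put the edgeR unadjusted p above 0.05, at 0.0508 to 0.0915 for Ccl7. The adjusted p of Ccl7 ran from 0.292 to 0.805 over the alternatives.

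Ccl8 counted 11.4, 19.9, 8.19, 27.8, 27.0 and 21.2 normalised molecules in DMSO replicates 1 to 6, and 6.45, 4.25, 5.26, 9.03, 19.6 and 15.0 in the picrotoxin libraries in the same order of numbers. The groups overlapped, since DMSO replicates 1 and 3 were low and picrotoxin replicates 5 and 6 were high. The means were 19.3 ± 8.01 and 9.92 ± 6.09 (SD, n = 6), and 5 of 6 picrotoxin libraries were below the DMSO mean. With a log2 fold change of -0.99 ± 0.30 (SE), Ccl8 had the smallest p of the 10 genes in edgeR (unadjusted p = 0.00221, adjusted p = 0.312). It kept a negative sign and an unadjusted p under 0.05 in 24 of 24 alternative analyses, in which the log2 value lay between -1.28 and -0.81 and the adjusted p between 0.00752 and 0.672. The adjusted value under 0.05 came from testing every gene with at least 1 count. DESeq2 gave Ccl8 no adjusted p (Wald test, unadjusted p = 0.00533), so the range of adjusted values leaves it out.

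Ccl12, a further Ccr2 ligand of the mouse, ranged from 62.5 to 137 in DMSO (median 94.9) and from 58.7 to 117 in picrotoxin (median 64.2). Picrotoxin replicates 1 and 2 were at 117 and 111, and the other 4 picrotoxin libraries lay between 58.7 and 65.2. The log2 fold change was -0.20 ± 0.18 over all libraries (edgeR, unadjusted p = 0.255, adjusted p = 0.849) and -0.34 ± 0.15 within replicates 3 to 6 (edgeR, unadjusted p = 0.0335, adjusted p = 0.469, range over alternatives 0.469 to 0.958).

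**Figure D2:**
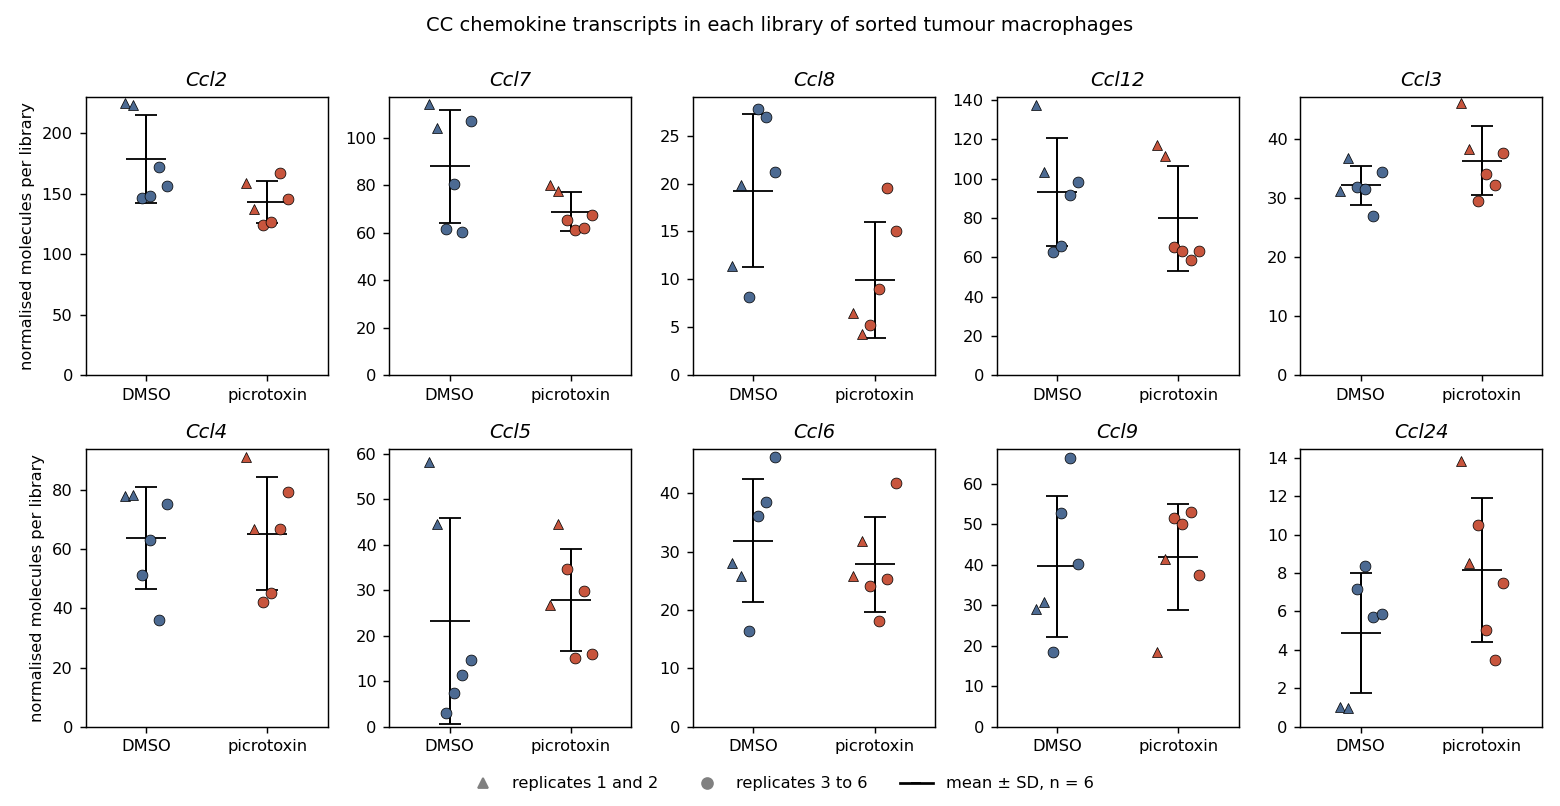
Each panel plots the normalised molecules of 1 gene in the 6 DMSO and 6 picrotoxin libraries, with the mean and SD as a black bar, triangles for replicates 1 and 2 and circles for replicates 3 to 6. The groups overlap in all 10 panels, all picrotoxin points of Ccl2 and Ccl7 lie below the DMSO mean, and the DMSO triangles are high for Ccl5 (58.3 and 44.7) and low for Ccl24 (1.04 and 0.993).

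Among the inflammatory proteins Ccl3, Ccl4 and Ccl5, Ccl3 was the steadiest of the 10 genes, with a biological coefficient of variation of 9.67% against a median of 19.9% for the 10 and 14.7% for all tested genes. It ranged from 27.0 to 36.7 in DMSO (median 31.6) and from 29.4 to 46.1 in picrotoxin (median 35.8). Its means were 32.1 ± 3.29 and 36.3 ± 5.82 (SD, n = 6; log2 fold change 0.19 ± 0.15, unadjusted p = 0.208, adjusted p = 0.817, edgeR). Ccl4, its neighbour on the chromosome, had means of 63.7 ± 17.2 and 65.2 ± 19.1 (SD, n = 6) and a log2 fold change of 0.05 ± 0.18. The 95% interval of that change, -0.30 to 0.40, bounds the difference that these libraries could hide.

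Ccl5, a chemokine made by macrophages and in large amounts by activated T and NK cells, was the most variable of the 10, with a biological coefficient of variation of 41.2%. In DMSO replicates 1 to 6 it gave 58.3, 44.7, 3.07, 7.42, 11.5 and 14.6 normalised molecules, and in the picrotoxin libraries 26.7, 44.6, 34.7, 15.0, 29.9 and 16.1. The first 2 DMSO libraries were thus the highest of all 12 and the other 4 the lowest, with the picrotoxin libraries between them. Over all libraries the log2 fold change was 0.31 ± 0.36 (edgeR, unadjusted p = 0.397, adjusted p = 0.900). Within replicates 3 to 6 alone Ccl5 rose by 1.32 ± 0.32 on the log2 scale (edgeR, unadjusted p = 0.000184, adjusted p = 0.0423), where 0.507% of 9666 genes passed the adjusted threshold. The test of the difference between replicates 3 to 6 and replicates 1 and 2 in this effect gave 1.85 ± 0.44 (edgeR interaction, unadjusted p = 0.000130, adjusted p = 0.108), beside 5.79% of genes at an unadjusted p under 0.05. The split of the libraries was chosen after seeing the data, so the p-values within replicates 3 to 6 and of the interaction are descriptive. On the side of replicates 1 and 2 the interaction rests on 2 libraries per group. Over the alternatives that gave one, the adjusted p of Ccl5 ran from 0.0423 to 0.980. Without DMSO replicates 3 and 5 its log2 value was -0.11 ± 0.31 (edgeR, unadjusted p = 0.727). In these libraries the T and NK cell markers summed to 23 molecules in picrotoxin replicate 6, 20 of them Gzmb, and to 0 to 2 in each of the other 11 libraries, and Ccl5 in picrotoxin replicate 6 was 16.1.

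For the myeloid Ccr1 ligands no difference past the threshold was found. Ccl6 ranged from 16.4 to 46.1 in DMSO (median 32.1) and from 18.1 to 41.8 in picrotoxin (median 25.6), with a log2 fold change of -0.22 ± 0.20 (edgeR, unadjusted p = 0.293, adjusted p = 0.865). Ccl9 ranged from 18.4 to 66.3 in DMSO (median 35.5) and from 18.4 to 52.9 in picrotoxin (median 45.8). Its log2 fold change of 0.06 ± 0.22 had a 95% interval of -0.37 to 0.49, and part of its count may come from repeats shared with other genes.

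Ccl24 was close to the limit of the depth, with 81 molecules over all libraries. DMSO replicates 1 to 6 gave 1.04, 0.993, 7.17, 8.35, 5.73 and 5.86 normalised molecules, and the picrotoxin libraries gave 13.8, 8.49, 10.5, 5.02, 3.45 and 7.50. DMSO replicates 1 and 2 were the lowest of the 12 libraries, and 5 of 6 picrotoxin libraries were above the DMSO mean of 4.86 ± 3.12 (SD, n = 6). The log2 fold change was 0.73 ± 0.38 (edgeR, unadjusted p = 0.0604, adjusted p = 0.681). Within replicates 3 to 6 it was 0.01 ± 0.39, and the interaction was -3.32 ± 0.86 (edgeR, unadjusted p = 0.000403, adjusted p = 0.193). That interaction also used the split chosen after seeing the data. DMSO replicates 1 and 2 thus held the highest values of Ccl5 and the lowest of Ccl24, as the plot of values by library shows.

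Within replicates 3 to 6, 3 of the 10 genes had an unadjusted p under 0.05 in edgeR (Ccl5 higher, Ccl8 and Ccl12 lower with picrotoxin), beside 9.64% of all genes. Over all libraries the 3 were Ccl2, Ccl7 and Ccl8, beside 7.77% of all genes. Without DMSO replicate 2 only Ccl8 had an unadjusted p under 0.05, beside 8.65%.

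**Figure D3:**
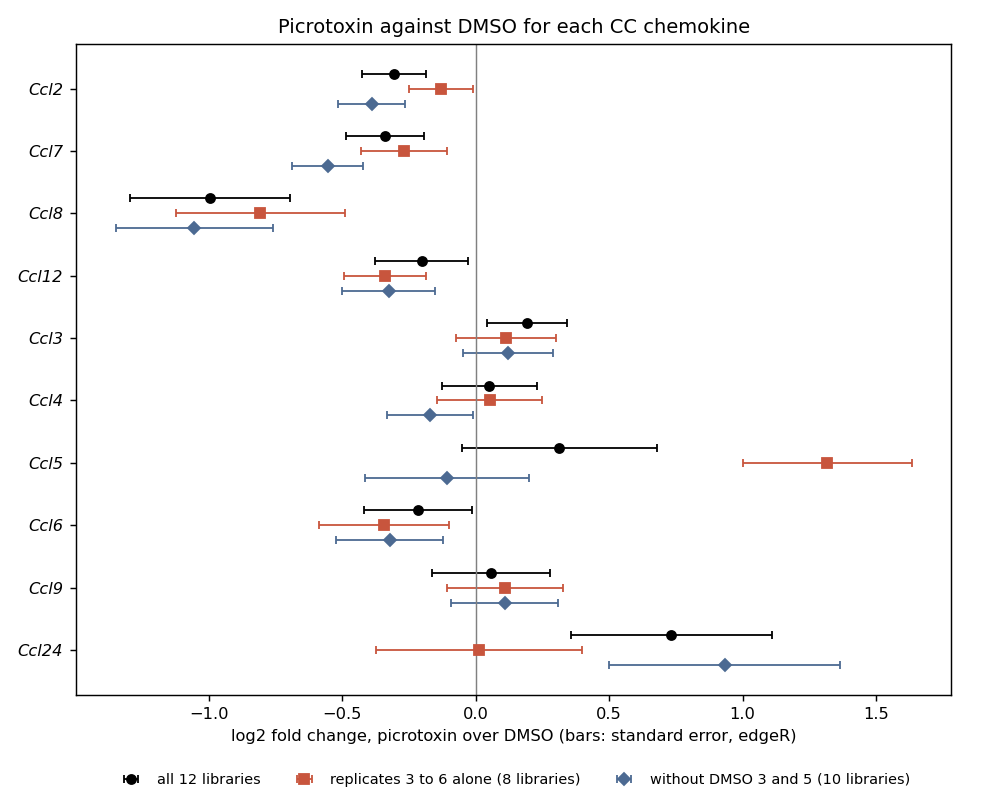
Points are log2 fold changes of picrotoxin over DMSO from edgeR with bars of 1 standard error, for all 12 libraries, for replicates 3 to 6 alone and without DMSO replicates 3 and 5. Ccl8 lies between -1.05 and -0.81 in all 3 analyses, Ccl5 moves from 0.31 to 1.32 or -0.11, and Ccl24 moves from 0.73 to 0.01 or 0.93.

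To ask which genes varied together apart from the treatment, log2 CPM (counts scaled to the size of each library) was correlated across the 12 libraries after removal of the group means. Of the 45 pairs, 29 had a positive r, 9 had an unadjusted permutation p under 0.05, and 2 kept an adjusted p under 0.05. The libraries share their depth and the split by number, so r is also given within replicates 3 to 6. Ccl3 and Ccl4, which lie side by side, had the highest r of 0.83 (permutation p = 0.00136, adjusted p = 0.0306) and a rho of 0.88 (permutation p = 0.000610, adjusted p = 0.0275). Their r was 0.76 without the 2 libraries farthest from the median and 0.85 within replicates 3 to 6. Ccl4 and Ccl7 followed with an r of 0.79 (permutation p = 0.00107, adjusted p = 0.0306) and a rho of 0.82 (permutation p = 0.00259, adjusted p = 0.0583), and r was 0.77 and 0.69 in the same checks. Ccl2 and Ccl5 had an r of 0.78 (permutation p = 0.0184, adjusted p = 0.118) that was 0.33 within replicates 3 to 6. Ccl8 had low r with the rest of its cluster over the 12 libraries, at -0.37 with Ccl12 (permutation p = 0.256, adjusted p = 0.524), -0.14 with Ccl7 (permutation p = 0.668, adjusted p = 0.795) and 0.16 with Ccl2 (permutation p = 0.631, adjusted p = 0.795). These values were all positive within replicates 3 to 6, at 0.26, 0.25 and 0.77. Thus r with Ccl12 and Ccl7 stayed low there, and only that with Ccl2 did not.

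**Figure D4:**
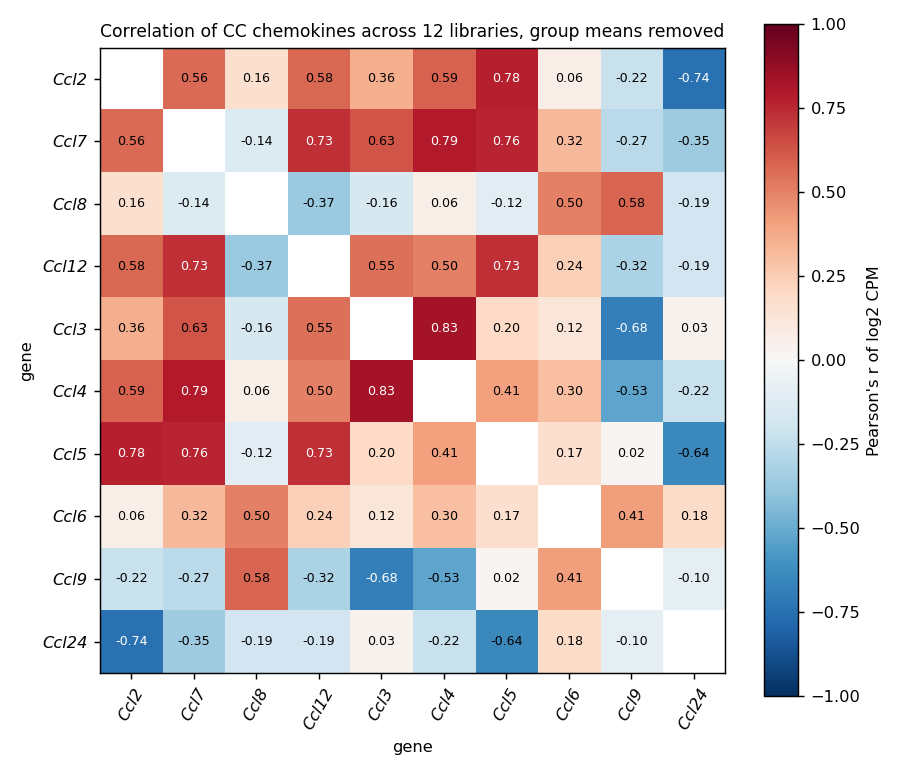
Cells give Pearson's r between each pair of CC chemokines over 12 libraries, from log2 CPM with the group means removed, in red where positive and blue where negative. The highest value is 0.83 for Ccl3 with Ccl4, and Ccl24 with Ccl2 has the lowest at -0.74.

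The genes most like each chemokine by the same measure, among 3741 genes with a mean of at least 10 molecules, are given as a description. They were picked for the highest r, so these values are high partly by selection. The libraries also share their depth and the split by number, and r within a subset was not computed for these genes. Ccl5 was closest to H2-Ab1, a chain of the MHC class II molecule that presents antigen (r = 0.97), and to the actin-capping gene Capg (0.92). Ccl7 was closest to the interferon-inducible Ifi204 (0.97) and to Itpripl2 (0.91). The interferon-stimulated gene Isg15 was among the nearest of both Ccl3 (0.88, after the MHC class I gene H2-T22 at 0.90) and Ccl4 (0.90, before Azi2 at 0.88). Ccl2 was nearest to H3f3a (0.91) and Psme2b (0.90), Ccl12 to Psen2 (0.92) and Ms4a6b (0.91), and Ccl8 to the complement receptor C3ar1 (0.84) and Nans (0.83). Ccl6 was nearest to Ppp1r10 (0.88) and Ndufa6 (0.82), and Ccl9 to Nrros (0.88) and Strn3 (0.88).

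The rest of the CC chemokine system was read from lists written from general knowledge. Of 14 other CC chemokine genes in the table, 10 had no molecule in any library, and the other 4 had between 1 and 7 over all libraries (Ccl22 had 4 and Ccl25 had 7), so none was tested. Of 11 CC receptor genes, 7 were at 0, among them Ccr3 of eosinophils and Ccr4 of helper T cells, and 3 were tested. Ccr2, the receptor of Ccl2, Ccl7 and Ccl12, had 209 ± 44.4 normalised molecules in DMSO and 245 ± 45.8 in picrotoxin (SD, n = 6; log2 fold change 0.24 ± 0.12, unadjusted p = 0.0599, adjusted p = 0.678, edgeR). Its log2 value was 0.41 ± 0.13 within replicates 3 to 6 (edgeR, unadjusted p = 0.00291, adjusted p = 0.197) and 0.11 ± 0.12 without DMSO replicates 3 and 5 (edgeR, unadjusted p = 0.390), and the adjusted p ran from 0.197 to 0.961 over the alternatives. Ccr1, the receptor of Ccl3, Ccl5, Ccl6 and Ccl9, ranged from 70.3 to 113 in DMSO and from 95.9 to 120 in picrotoxin, and 6 of 6 picrotoxin libraries were above the DMSO mean (log2 fold change 0.31 ± 0.12, unadjusted p = 0.0123, adjusted p = 0.479, edgeR). The same analyses gave 0.48 ± 0.13 and 0.25 ± 0.13 for Ccr1 (edgeR, unadjusted p = 0.000899 and 0.0634). Of 6 atypical receptor genes only Ccrl2, which binds chemerin, was tested, at 35.1 ± 6.90 and 33.0 ± 6.17 (SD, n = 6), and Ackr3 had 1 molecule in all.

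Of 19 tested genes for signalling below chemokine receptors, 3 had an unadjusted p under 0.05 and 0 an adjusted one in edgeR. All 3 had the higher mean in picrotoxin, beside 7.77% of all genes in either direction and 3.65% in that one. Pik3cg, the PI3-kinase catalytic subunit driven by Gβγ, had 18.5 ± 4.47 in DMSO and 27.0 ± 5.44 in picrotoxin (SD, n = 6; log2 fold change 0.54 ± 0.19, unadjusted p = 0.00753, adjusted p = 0.408, edgeR). Jak2 and Dock2, the activator of Rac in migrating leukocytes, had log2 fold changes of 0.45 ± 0.19 and 0.35 ± 0.17 (edgeR, unadjusted p = 0.0257 and 0.0453, adjusted p = 0.563 and 0.631). Of 24 alternatives, the unadjusted p was under 0.05 in 24 for Pik3cg, 17 for Jak2 and 7 for Dock2. Of 20 transcription factors that act on chemokine genes, 3 had an unadjusted p under 0.05 and 0 an adjusted one, each with the higher mean in picrotoxin (3.65% of all genes). They were Irf8, a factor of the macrophage lineage (121 ± 27.3 and 157 ± 16.6, SD, n = 6; log2 fold change 0.39 ± 0.13, unadjusted p = 0.00426, adjusted p = 0.341, edgeR), Stat3 (0.35 ± 0.14) and Atf3 (0.28 ± 0.13). In replicates 3 to 6 alone, a subset chosen after seeing the data, Irf8 was at 0.56 ± 0.13 (edgeR, unadjusted p = 0.000139, adjusted p = 0.0394). In that subset 0.507% of 9666 genes had an adjusted p under 0.05. Without DMSO replicates 3 and 5 Irf8 was at 0.21 ± 0.12 (edgeR, unadjusted p = 0.0822, adjusted p = 0.900). Its adjusted p ran from 0.0394 to 0.900 over the alternatives. Stat3 and Atf3 also lost their unadjusted call without DMSO replicates 3 and 5, at 0.29 ± 0.15 and 0.17 ± 0.14 (edgeR, unadjusted p = 0.0665 and 0.224). The NF-κB subunits Nfkb1 and Rela had log2 fold changes of 0.05 ± 0.19 and -0.23 ± 0.23.

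Messages of chemokines can be short-lived, and decay factors can bind the letters ATTTA in their end region. A match of these letters does not show that a message is short-lived, and no half-life was measured. At least 1 such match was found in 7 of the 10 genes (70%) and in 65.2% of 21022 coding genes, and the median per kilobase of end region was 3.94 and 1.24. Ccl3, Ccl9 and Ccl12 held 5 each and Ccl6 held 4, whereas Ccl5, Ccl8 and Ccl24 held 0. Of 8 tested genes for such factors, 1 had an unadjusted p under 0.05 and 0 an adjusted one, namely Elavl1, a protein that stabilises these messages, with 23.0 ± 3.45 in DMSO and 17.2 ± 3.49 in picrotoxin (SD, n = 6; log2 fold change -0.40 ± 0.19, unadjusted p = 0.0399, adjusted p = 0.621, edgeR). The unadjusted p of Elavl1 was under 0.05 in 16 of 24 alternatives. Zfp36, which speeds the decay of these messages, had 115 ± 26.4 and 108 ± 17.4 (SD, n = 6; log2 fold change -0.08 ± 0.14). Taking receptors, signalling genes, transcription factors and decay factors as 51 tested genes, 8 had an unadjusted p under 0.05, beside 7.77% of all genes. The sort marker Itgam had 137 ± 39.0 in DMSO and 178 ± 14.0 in picrotoxin (SD, n = 6; log2 fold change 0.38 ± 0.13, unadjusted p = 0.00694, adjusted p = 0.408, edgeR), and 0.17 ± 0.12 without DMSO replicates 3 and 5 (edgeR, unadjusted p = 0.146). Its part in these values was not tested.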

How the data were processed

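RNA of 100 sorted macrophages per library was fragmented by heat, copied with a poly(A)-directed primer carrying a molecular barcode, amplified and sequenced. The values deposited by the authors are raw counts, 1 for each barcode, given per gene symbol. They come from alignment with STAR to mm10 under the refFlat annotation. The handling of strand, of reads with several positions and of barcode errors was not given in the sources used here.

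The 10 genes and all lists were chosen with earlier results of these data known. Genes with a mean normalised count above 1 were tested (9580 of 24781 rows, 10966 of which held no molecule). Groups were compared in edgeR 4.0.16 (quasi-likelihood F, TMM, no covariate, two-sided), and p-values were adjusted by Benjamini-Hochberg across the 9580 genes. The Wald test of DESeq2 1.42.0, which the study used at an unadjusted p under 0.05, and limma-voom (limma 3.58.1) were alternatives. Normalised molecules are counts divided by DESeq2 size factors. Correlations used log2 CPM (TMM, prior count 2) with 100000 permutations within groups, two-sided, adjusted over 45 pairs. Marker shares and totals were compared by exact two-sided permutation over 924 assignments.

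Named genes were the 10 chemokines, the sort markers, up to 4 genes per further list with an unadjusted p under 0.05 (where none, the 2 with the highest mean count), and the 2 genes most like each chemokine with a mean of at least 10. A few further genes were named after their values were seen, namely Ccr2, Ccr3, Ccr4, Nfkb1, Rela, Zfp36 and Gzmb. For 1 of the tested genes no result is reported here, and the counts include it.

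Totals of 201697 to 309617 molecules set the precision, and barcodes remove PCR copies. The intervals of the fold changes come from the standard error of edgeR, which includes variation between libraries. The limit given for an undetected gene covers counting error only. Each of 30 pairs of libraries of a group differed by more than sampling noise (chi-square per degree of freedom 1.23 to 3.15), so none was counted as a copy. Positions came from GENCODE M21 and promoters from RefSeq. The edgeR script was tested on simulated data. Alternatives covered normalisation, filters, other tools, a replicate block, covariates and leaving out libraries.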

Additional observations from a re-analysis of the deposited data

Results flagged for a closer look

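A library was looked at again where it lay far from the other 5 of its group, by a gap, relative to the whole range of the group, above Dixon's 95% value for 6 samples. Of 60 tests of chemokine values, receptors, sort markers, marker lists and totals, 6 met this, and chance alone gives about 1 in 20, or 3 here. None was a CC chemokine value.

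The T and NK cell markers took 0.0105% of molecules in picrotoxin replicate 6, against 0 to 0.000880% in the other 5 picrotoxin libraries, and Ccl5 was 16.1 normalised molecules in that library against 15.0 to 44.6 in the other 5. Fibroblast and matrix markers took 0.298% in DMSO replicate 5, against 0.00771% to 0.0974% in the other DMSO libraries, and that library had the lowest DMSO values of Ccl7 (60.5), Ccl4 (36.0) and Ccl3 (27.0). It also had the highest Ccl9 of all libraries (66.3). Its Ccl6 (38.4), Ccl8 (27.0) and Ccl24 (5.73) were above the DMSO means, and its Ccl2, Ccl5 and Ccl12 were below them. The part of this library in the chemokine values was not tested beyond the analyses that leave it out. The epithelial markers took 0.00637% in DMSO replicate 1, against 0.00325% to 0.00441%. These were 13 molecules of Cdh1 and 1 of Krt8, and Epcam, Krt18 and Krt19 were at 0 in every library. The mast cell markers took 0.000969% in DMSO replicate 6 and 0.000417% in picrotoxin replicate 4, against 0 in the other libraries of each group. These were 3 and 1 molecules of Kit, and the other mast cell markers were at 0. Where the other 5 libraries hold 0, any molecule meets the rule. The sort marker Itgam was lowest in picrotoxin replicate 1 at 152 normalised molecules, against 177 to 191 in the other 5.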

How the results depend on the processing

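Each of the 10 genes was refitted under 24 alternatives, which gave 239 values because Ccl24 was too rare for the filter at a mean of 10. Of these, 221 kept their direction and their side of an adjusted p of 0.05. A gene that DESeq2 left without an adjusted p was counted as not under 0.05. Ccl2, Ccl3, Ccl6, Ccl7, Ccl8, Ccl12 and Ccl24 kept their direction in every refit, with an unadjusted p under 0.05 in 21 of 24 for Ccl2, 16 of 24 for Ccl7 and 24 of 24 for Ccl8. The sign turned for Ccl4 with library totals alone (log2 value -0.0022), the matrix marker share as a covariate (-0.11) and without DMSO replicates 3 and 5 together (-0.17), and for Ccl9 with library totals alone (-0.0022). Leaving out 1 library each gave -0.081 to 0.150 for Ccl4 (negative in 4 of 12) and -0.083 to 0.262 for Ccl9 (negative in 6 of 12). Ccl5 turned with the matrix covariate (-0.18) and without DMSO replicates 3 and 5 together (-0.11), and was 0.0981 to 0.797 with 1 library left out. The cause was not tested.

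The number of the 10 genes with an unadjusted p under 0.05 was 1 to 4 with 1 library left out, beside 6.38% to 8.65% of all genes. It was 1 without DMSO replicate 2, beside 8.65%. The number of all genes with an adjusted p under 0.05 was 3 with limma-voom, 13 with library totals alone, 81 with every gene of at least 1 count, 12 without the ribosomal RNA row, 27 with replicates 1 and 2 against 3 to 6 as a term, 49 in replicates 3 to 6 alone, 0 with the matrix covariate, 1 without DMSO replicates 3 and 5 together, and 0 to 25 with 1 library left out. At an unadjusted p under 0.05 it was 744 in the main analysis, 387 with DESeq2 and 396 at a mean above 10. Library totals alone gave 215 higher and 530 lower genes against 350 and 394, and a median log2 of -0.06 over all genes. Of the 51 receptor, signalling and regulator genes, 4 had an unadjusted p under 0.05 with DESeq2 (4.04% of all genes there), 13 in replicates 3 to 6 alone (9.64%), 5 with the matrix covariate (5.96%), 4 without DMSO replicates 3 and 5 together (5.46%), and 4 to 9 with 1 library left out (6.38% to 8.65%). The difference in the share of molecules on the 10 genes was -0.0349 percentage points in the main analysis. Under its alternatives it lay between -0.0504 and -0.0224. The SD of the DMSO libraries, 0.0496, was larger than the difference in the main analysis. Per molecule instead of per kilobase, 4 genes changed rank.

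The replicate numbers are not taken as pairs, since deviations of libraries with the same number correlated at -0.0049 to 0.126, with 1 of 6 over 0.1. With a replicate block, 43 genes had an adjusted p under 0.05, and 3 of the 10 chemokines an unadjusted one, beside 7.76% of all genes. Ccl8 then had a log2 value of -0.94 (edgeR, adjusted p = 0.0637, against 0.00752 to 0.672 over the alternatives that gave one). The interaction with replicates 1 and 2 against 3 to 6, and the fit to replicates 3 to 6 alone, were chosen after seeing the data. At this depth, differences in Ccl24 and in chemokines at or near 0 molecules could not be resolved.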
